A study of Mus musculus with 2 samples.

Results

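The genes described here are 41 interferon-stimulated genes, picked by symbol from the 24346 symbols of a table of Gr-1+ CD11b+ cells, and all 41 were found. They fall into 31 genes that respond mostly to type I interferon, 9 GTPase genes that respond mostly to interferon gamma, and AW112010, a transcript inducible by interferon gamma that is no GTPase. The cells came from BALB/c mice given 3% dextran sulfate sodium (DSS), which injures the colon and causes colitis, for 6 days. One library (n = 1) was made from cells stimulated without ATPγS, called the control, and one (n = 1) from cells stimulated for 2.5 hours with ATPγS, an ATP analogue that is broken down slowly and acts on nucleotide receptors. Both groups carry the DSS treatment, so neither is an untreated baseline, and no source used here gives the tissue the cells were taken from or the number of mice. The series title points to the ATP-gated receptor P2X4 and metabolism in myeloid cells. With 1 library per group the differences below have no replicate check and no p-value.

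Type I interferons bind a receptor of IFNAR1 and IFNAR2, and the kinases JAK1 and TYK2 then activate a complex of STAT proteins and IRF9 that binds the interferon-stimulated response element (ISRE). Interferon gamma binds IFNGR1 and IFNGR2 and acts through JAK1, JAK2 and a STAT dimer that binds the gamma-activated sequence (GAS). The resulting proteins sense foreign nucleic acids or block viral entry, translation and replication. Some of the interferon gamma-biased GTPases attack the vacuoles of intracellular pathogens. Neutrophils and monocytes express many of these genes during inflammation.

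Values are FPKM, fragments scaled to transcript length and library depth, which allow levels to be compared between genes per length. From the smallest steps of the values, a depth of 2133000 fragments was recovered (control), and one of 2848000 with ATPγS. Of the gated markers, Itgam, the gene of CD11b, stood at 112 FPKM in the control and 144 FPKM with ATPγS. Ly6c1, of a Gr-1 antigen, stood at 133 FPKM in the control and 166 FPKM with ATPγS. Ly6c2, of the same antigen, stood at 70.9 and 63.7 FPKM, and Ly6g, of another, had no value. The neutrophil genes S100a8 (20604 and 22409.6 FPKM) and S100a9 (13776 and 14941.6 FPKM) were the most abundant markers. Genes with a mean of at least 10 FPKM had a median log2 ratio of -0.13, so a member between -0.13 and 0 lies in the upper part of all such genes. The log2 ratio throughout is log2((ATPγS FPKM + 1) / (control FPKM + 1)), and it understates the difference of low genes.

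The 2 groups of members differed in where they lay. Of the 9 GTPases, all 9 had a lower FPKM with ATPγS (8 after rescaling to a median log2 ratio of 0), with a median log2 ratio of -0.53, although 0 reached a 2-fold difference. Of the 31 type I-biased genes, 22 were lower and 9 higher (17 and 14 after that rescaling), with a median of -0.19. All genes had a median of 0.01 at a mean of at least 1 FPKM and of -0.13 at 10 FPKM or more. Leaving out a fixed list (Ifit1, Ifit3, Oas1a, Ifitm1, Ifitm2, Ifitm3, Mx1, Mx2 and Trim30a) gave a type I-biased median of -0.34. Of that list, only Ifit3 and Oas1a matched another gene of the table over most of their transcript. Summing each of them with its copy gave a type I-biased median of -0.15. Of all genes, 49.6% were lower at a mean of at least 1 FPKM and 60% at a mean of at least 10 FPKM. Among the type I-biased genes only Cmpk2, a mitochondrial nucleotide kinase gene, was lower by 2-fold or more. AW112010 differed most of all members, at 388 FPKM in the control and 109 FPKM with ATPγS. Over all genes with a mean of at least 1 FPKM, 9.91% were lower and 13.8% higher by 2-fold or more. At a mean of at least 10 FPKM the shares were 7.38% and 4.29%, so the 2 of 41 members that were lower by this much and the 0 that were higher did not exceed the background.

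The promoters of the members show what the groups share in sequence. RefSeq windows (GRCm38.p6) of 250 bases before to 50 bases after a transcription start were found for 32 members, in 37 windows. The ISRE core was searched as GAAANNGAAA and the GAS core as TTCNNNGAA, each on both strands, where N is any base and neighbouring cores may overlap. An ISRE core was found for 7 of 8 GTPases (87.5%) and for 12 of 23 type I-biased genes (52.2%), beside 3.99% of all 27025 genes with a window. A GAS core was found for 4 of 8 GTPases (50%) and for 8 of 23 type I-biased genes (34.8%), beside 9.55% of all genes. Both cores occurred together in 8 of the 32 members, beside 0.614% of all genes. A match describes letters in a window and was not tested for binding.

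The windows below, upstream of the start and 5′ to 3′ on the strand of the gene, were chosen to show an ISRE core in each kind of member. Capitals mark the fixed letters of the ISRE core (GAAA, or TTTC on the other strand) and of the GAS core (TTC and GAA).
Isg15, chr4:156200819-156200918, minus strand: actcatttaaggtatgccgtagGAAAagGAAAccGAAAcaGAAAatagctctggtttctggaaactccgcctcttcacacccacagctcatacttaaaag
Ifit1, chr19:34640769-34640888, plus strand: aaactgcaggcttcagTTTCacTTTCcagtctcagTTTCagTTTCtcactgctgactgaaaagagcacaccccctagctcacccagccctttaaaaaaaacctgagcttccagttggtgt
Rsad2, chr12:26456453-26456592, minus strand: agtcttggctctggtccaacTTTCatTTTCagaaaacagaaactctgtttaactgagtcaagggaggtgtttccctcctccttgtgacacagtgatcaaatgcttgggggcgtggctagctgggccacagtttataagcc
Gbp2, chr3:142620583-142620662, plus strand: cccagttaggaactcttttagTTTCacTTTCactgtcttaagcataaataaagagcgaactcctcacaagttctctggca
Gbp7, chr3:142530216-142530335, plus strand: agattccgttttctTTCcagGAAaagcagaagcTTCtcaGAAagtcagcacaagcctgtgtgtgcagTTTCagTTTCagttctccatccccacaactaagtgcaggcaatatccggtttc
Irgm1, chr11:48871421-48871500, minus strand: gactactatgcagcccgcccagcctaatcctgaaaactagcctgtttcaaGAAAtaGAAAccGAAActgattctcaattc
Igtp, chr11:58199476-58199555, plus strand: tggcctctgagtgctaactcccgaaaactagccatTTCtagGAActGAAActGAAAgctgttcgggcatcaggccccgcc
Irgm2, chr11:58214877-58214976, plus strand: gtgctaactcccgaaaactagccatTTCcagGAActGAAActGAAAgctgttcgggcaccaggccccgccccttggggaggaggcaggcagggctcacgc

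Isg15 carried 3 overlapping ISRE cores and Ifit1 carried 2 separate ones. Igtp and Irgm2, neighbouring genes, had the same arrangement of a GAS core followed by an ISRE core, at -45 and -34 bases in Igtp and at -75 and -64 bases in Irgm2. With the cores aligned, 184 of 270 bases of these 2 windows matched (68.1%). Their FPKM ratios were 0.826 for Igtp and 0.951 for Irgm2. Gbp7 had 2 GAS cores and 1 ISRE core, whereas Gbp2 had 1 ISRE core and no GAS core in its window. No core was found in the windows of Ifi47, Cmpk2, Oasl1, Oasl2, Ifi44, Ifitm1, Xaf1, Herc6 and AW112010. The members without an entry in the promoter table were Mx1, Mx2, Oas2, Usp18, Zbp1, Dhx58, Parp14, Rtp4 and Iigp1.

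**Figure D1:**
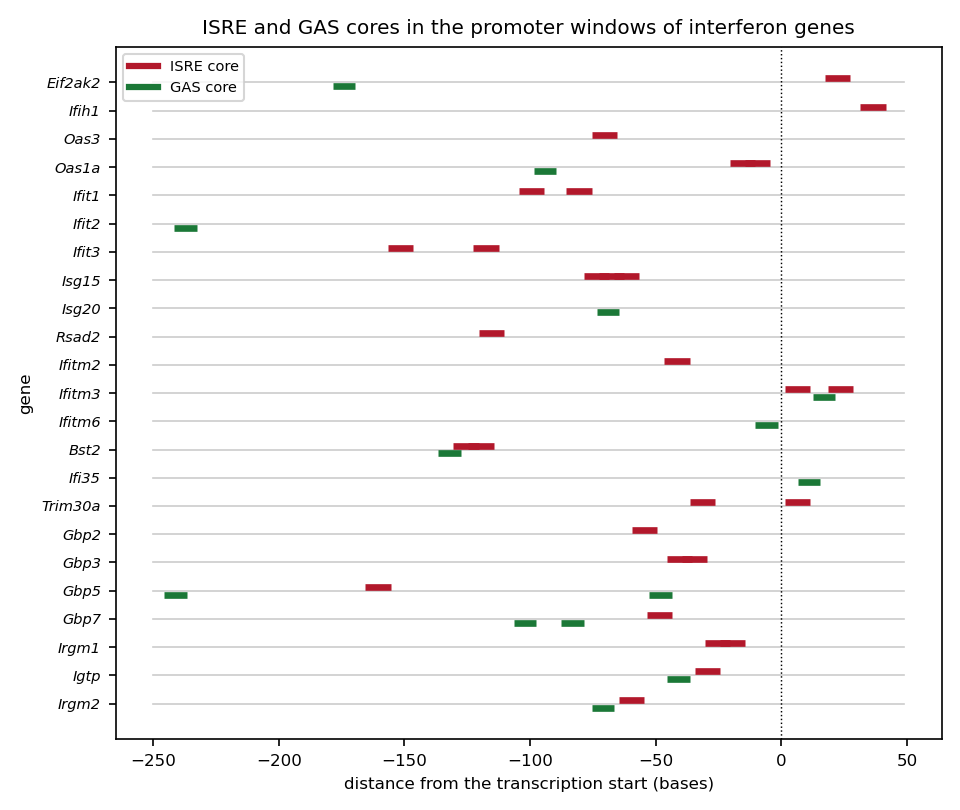
Positions of ISRE cores (red) and GAS cores (green) in the promoter windows of the 23 members with at least 1 core, as the distance in bases from the transcription start (dotted line). Each row is a gene, and windows of a gene with several starts, such as Trim30a, are drawn on 1 row. In the 7 GTPases at the bottom the ISRE cores lie upstream of the start.

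The guanylate-binding proteins are large GTPases that assemble on pathogen vacuoles and on bacteria, and 4 of their genes were members. Gbp2 was the most abundant, at 195 FPKM in the control and 172 FPKM with ATPγS (ratio 0.883, 95% counting interval 0.813 to 0.960). Gbp3 stood at 47.6 and 32.5 FPKM (ratio 0.684, interval 0.573 to 0.814). Gbp5, which also promotes inflammasome assembly, stood at 36.9 and 24.1 FPKM (ratio 0.654, interval 0.542 to 0.792). All of these were lower in the ATPγS library. Gbp7 differed most of the 4, at 31.7 and 16.6 FPKM, or 1.91-fold lower (ratio 0.524, interval 0.447 to 0.615). The 4 genes lie in 1 cluster on chromosome 3, all on the plus strand. Their order is Gbp5 (142493978 to 142522344, GRCm38), Gbp7 (142530342 to 142550149), Gbp3 (142560026 to 142573209) and Gbp2 (142620602 to 142638008). Gbp2b, which is not a member, lies between Gbp3 and Gbp2 on the same strand (142594847 to 142619179). It stood at 148 and 109 FPKM (ratio 0.738, interval 0.672 to 0.811). Gbp2, the most abundant of the 4 members, thus had the ratio nearest to 1 among them. Its interval did not overlap those of Gbp5 and Gbp7, and the share of such pairs among all genes was not counted.

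The immunity-related GTPases among the members were 3 of the regulatory class and 2 of the effector class. The regulatory members, which protect host membranes from the effector GTPases, had ratios nearer to 1. Irgm1, also a regulator of autophagy, stood at 178 and 158 FPKM (ratio 0.889, interval 0.809 to 0.976), Igtp at 112 and 92.8 FPKM (interval 0.728 to 0.934) and Irgm2 at 36.4 and 34.6 FPKM (interval 0.810 to 1.12). The effector class loads onto vacuoles. Ifi47 stood at 136 FPKM in the control and 73.4 FPKM with ATPγS, or 1.85-fold lower (interval of the ratio 0.471 to 0.621). Iigp1 stood at 25.3 and 13.7 FPKM, or 1.84-fold lower (interval 0.424 to 0.691). The 2 effector genes had log2 ratios of -0.88 and -0.84, and the 3 regulatory genes had ratios from -0.27 to -0.07. Outside the members, 4 further GTPase genes were picked out after their values were seen, and they did not all lie on 1 side. Tgtp2 (20.4 and 11.1 FPKM, interval 0.411 to 0.724) and Tgtp1 (7.67 and 5.84 FPKM, interval 0.499 to 1.175) were lower. The interval of Tgtp1 overlapped those of the regulatory genes. Gm4951 (9.21 and 4.78 FPKM) was lower too, whereas F830016B08Rik (8.10 and 10.4 FPKM) was higher, with an interval that included 1. No difference between the classes was tested.

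The intervals are exact binomial ones on reads estimated from transcript length and depth, and they cover counting error only. Among the 9 GTPases, 8 had an interval that excluded a ratio of 1, all on the lower side, with Irgm2 the exception. Of 2961 genes in the same range of levels, 39.6% had an interval wholly below 1 and 19.1% wholly above it, so such intervals are common at this depth. The median ratio of all genes at 10 FPKM or more was 0.910, and 5 of the 9 lay wholly below it, namely Ifi47, Gbp3, Gbp5, Gbp7 and Iigp1, and 0 wholly above. In the same range of levels 28.3% of genes lay wholly below it and 28.3% wholly above. After rescaling to a median log2 ratio of 0, 8 of the 9 stayed below 0 and Irgm2 lay above it. The 3071 genes in the same range of levels, 19.5 to 183 FPKM, had a median log2 ratio of -0.14, a lower quartile of -0.47 and 5.44% at least 2-fold lower. The transcript models of Igtp and Irgm2 overlap, and those of Ifi47 and the receptor gene Olfr56 (2.32 and 3.17 FPKM) do too, so reads in the shared parts could be assigned to either gene.

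AW112010 is annotated as a long intergenic RNA on chromosome 19 (11047612 to 11055808, minus strand) and is induced by interferon gamma in several kinds of leukocyte. It stood at 388 FPKM in the control and 109 FPKM with ATPγS, or 3.57-fold lower. The estimated reads were 638 and 238, and the counting interval of the ratio was 0.240 to 0.325, below those of all other members. Of the 833 genes with a mean of at least 100 FPKM, 14 had a log2 ratio at or below its -1.83, itself included.

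Markers of other leukocytes also differed between the libraries, and T and NK cells express interferon gamma-inducible genes. Of 11 markers of T and NK cells, 6 had a level lower by 2-fold or more with ATPγS and 1 a higher one. Their summed level was 390 FPKM in the control and 197 FPKM with ATPγS, and none was listed at 0. Gzma, a granzyme gene, stood at 45.8 and 66.1 FPKM and Cd2, of an adhesion receptor, at 62.6 and 33.8 FPKM. Picked out after their values were seen, Cd3g, of the T cell receptor complex, stood at 76.5 and 19.4 FPKM and Lck, of its kinase, at 64.9 and 20.4 FPKM. The 7 B and plasma cell markers summed to 1325 and 933 FPKM, with Jchain, of the antibody joining chain, at 929.9 and 643 FPKM and Cd79a, of the B cell receptor, at 133 and 85.9 FPKM. The 5 eosinophil markers summed to 80.1 and 59.0 FPKM, with Ccr3 at 41.5 and 30.4 FPKM and Siglecf at 19.3 and 13.6 FPKM. The 7 plasmacytoid dendritic cell markers, which include the member Bst2, summed to 139 and 106 FPKM, with Klk1 at 54.7 and 29.1 FPKM. Siglech (6.794 and 14.02 FPKM) and Spib (11.3 and 18.9 FPKM) of that list, picked out after their values were seen, were higher with ATPγS. The neutrophil markers in the table summed to 40116 and 43225 FPKM, most of it from S100a8 and S100a9. Of these 11 neutrophil markers, 7 were higher and 4 lower with ATPγS. The 7 monocyte markers summed to 303 and 284 FPKM, with Ms4a6c at 146 and 141 FPKM, and 6 of the 7 were lower. The 11 macrophage and dendritic cell markers summed to 3446 and 3863 FPKM, with Cd74 at 2647 and 2825 FPKM and H2-Ab1 at 545 and 643 FPKM. Of these 11, 10 were higher with ATPγS, with a median log2 ratio of 0.41, 2 of them by 2-fold or more. Fewer cells of a type and less RNA per cell cannot be told apart in bulk libraries. The cells were isolated as Gr-1+ CD11b+, a selection aimed at myeloid cells, and its purity was not measured here. The part of these cells in the values of AW112010 and the GTPases was not tested.

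**Figure D2:**
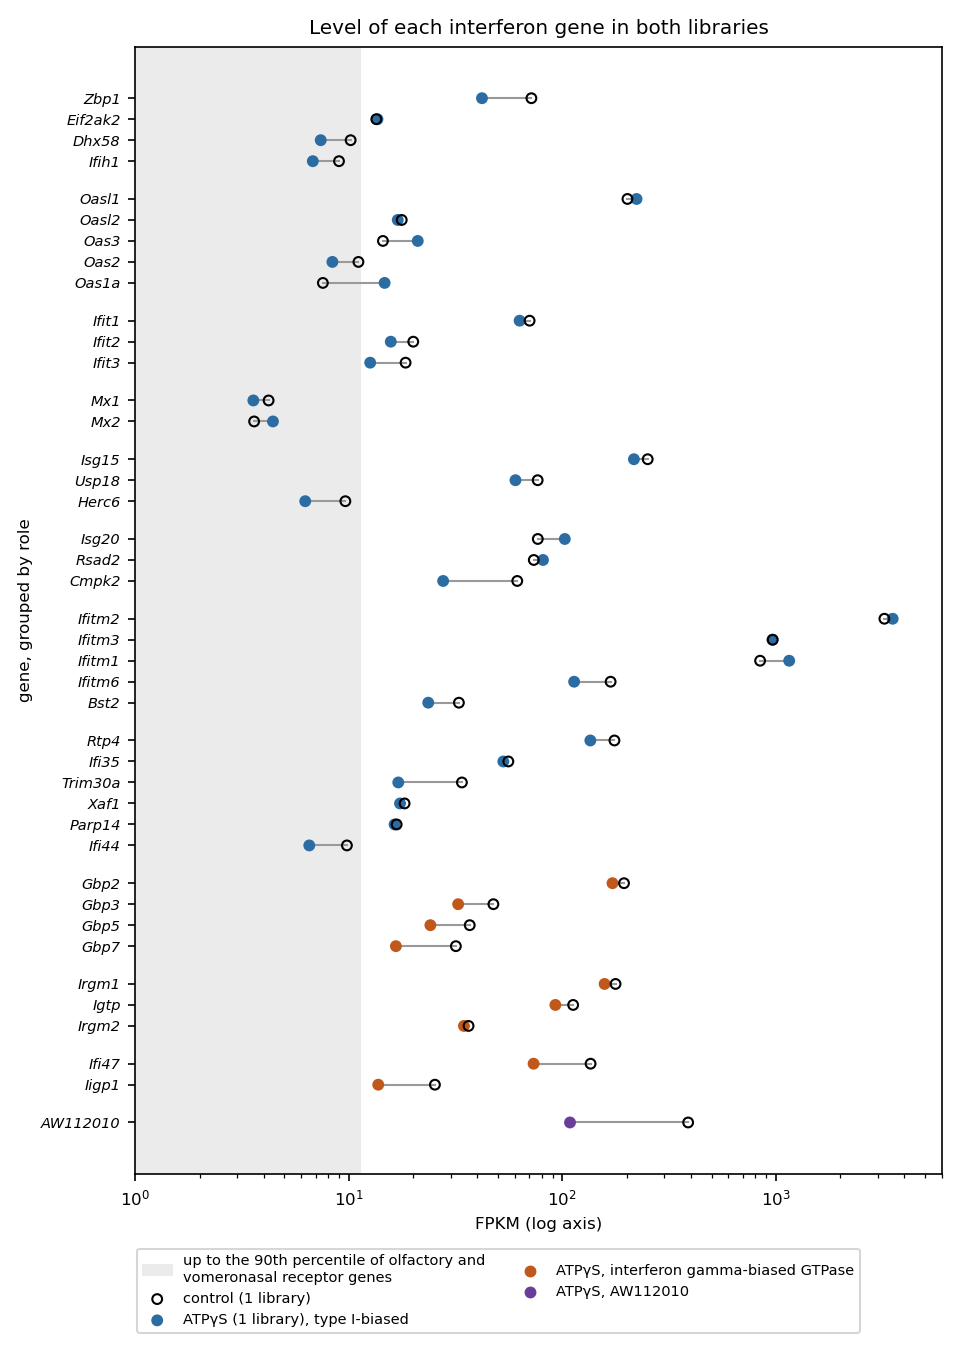
FPKM of each of the 41 members on a log axis, with 1 library per condition (open circles, control; filled circles, ATPγS), grouped by role. The grey band reaches the 90th percentile of olfactory and vomeronasal receptor genes in the control, 11.3 FPKM. AW112010 has the widest gap, from 388 to 109 FPKM, and the ATPγS value of all 9 GTPases lies to the left of the control value.

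Among the type I-biased genes, the ISG15 system, the IFIT proteins and the nucleic acid sensors lay mostly on the lower side of 1. Of these genes only Zbp1 and Herc6 had an interval wholly below 0.910, the median ratio of all genes at 10 FPKM or more. Isg15, a ubiquitin-like protein that is attached to other proteins, was at 251 FPKM in the control and 216 FPKM with ATPγS (interval of the ratio 0.753 to 0.987). Usp18, which removes ISG15 and dampens the type I receptor, stood at 76.7 and 60.4 FPKM (interval 0.666 to 0.925). Herc6, the ISG15 ligase of mice, stood at 9.64 and 6.25 FPKM (interval 0.480 to 0.878). These 3 genes of 1 system were lower by 1.16-fold to 1.54-fold. Of the transcript of Isg15, 63.8% matches another gene model, AC151275.1, at 95% identity or more.

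The IFIT proteins bind viral RNA and restrain translation. Ifit1 stood at 70.3 and 63.1 FPKM (interval 0.784 to 1.03) and Ifit2 at 20.05 and 15.73 FPKM (interval 0.630 to 0.980). Ifit3 stood at 18.5 and 12.6 FPKM, but 97.4% of its transcript matches Ifit3b, which was at 4.22 and 9.03 FPKM. The sum of the 2 copies was 22.7 and 21.6 FPKM, a log2 ratio of -0.07 in place of -0.52, so the lower value of Ifit3 by itself is uncertain.

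The sensors gave one clear difference. Zbp1, a sensor of left-handed nucleic acids that can trigger cell death, stood at 71.7 FPKM in the control and 42.1 FPKM with ATPγS, or 1.70-fold lower (interval of the ratio 0.475 to 0.721). Ifih1, of the RNA sensor MDA5, stood at 9 and 6.79 FPKM, and Dhx58, of its cofactor LGP2, at 10.2 and 7.39 FPKM, and the intervals of both included 1 (0.557 to 1.03 and 0.489 to 1.10). Eif2ak2, of the kinase PKR that halts translation, stood at 13.5 and 13.6 FPKM (interval 0.795 to 1.28).

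The oligoadenylate synthetases, which activate the RNA-degrading enzyme RNase L, leaned the other way. Oas3 stood at 14.5 FPKM in the control and 21.0 FPKM with ATPγS (ratio 1.46, interval 1.18 to 1.79). Oas1a stood at 7.56 and 14.7 FPKM (ratio 1.95, interval 1.28 to 3.11) and had the highest ratio of all members. The control value came from about 30 estimated reads. It lay below the 90th percentile of the olfactory and vomeronasal receptor genes in the control, 11.3 FPKM. All of the Oas1a transcript matches Oas1g at 95% identity or more. The sum of Oas1a and Oas1g was 8.73 and 16.6 FPKM, a log2 ratio of 0.86. Oasl1, a synthetase-like protein that limits translation of Irf7, was the most abundant at 202 and 223 FPKM (interval 1.015 to 1.201). Oasl2 stood at 17.7 and 17.0 FPKM (interval 0.748 to 1.23), and Oas2 at 11.1 and 8.38 FPKM (interval 0.556 to 1.01). Oas2 and Oas3 are neighbours on chromosome 5, separated by 3245 bases, and their intervals did not overlap. The share of such pairs among all genes was not counted.

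Cmpk2 and Rsad2 form another pair of neighbours with different values. Rsad2 encodes viperin, which turns CTP into a chain terminator of viral polymerases, and Cmpk2 encodes a kinase that supplies CTP. Rsad2 (chromosome 12, 26442746 to 26456452, minus strand) and Cmpk2 (26469204 to 26479837, plus strand) lie head to head with 12752 bases between them. Rsad2 stood at 73.5 FPKM in the control and 81.2 FPKM with ATPγS (ratio 1.10, interval 0.995 to 1.23). Cmpk2 stood at 61.5 and 27.7 FPKM, or 2.22-fold lower (interval of the ratio 0.383 to 0.527), from about 420 and 252 reads. The 2 genes had like levels in the control and differed with ATPγS, and their intervals did not overlap. The intervals of 2 other neighbouring pairs, Mx1 with Mx2 and Igtp with Irgm2, did overlap. How often the intervals of 2 genes fail to overlap was not counted over all genes. Isg20, an exonuclease that degrades RNA, was higher, at 76.8 and 103 FPKM (interval 1.10 to 1.63).

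The interferon-induced transmembrane proteins, which hinder the fusion of viruses with membranes, included the 3 most abundant members, Ifitm1, Ifitm2 and Ifitm3. Ifitm2 stood at 3224 FPKM in the control and 3525 FPKM with ATPγS (interval 1.05 to 1.14), Ifitm3 at 967 and 964 FPKM (interval 0.930 to 1.07) and Ifitm1 at 844 and 1155 FPKM (ratio 1.37, interval 1.28 to 1.46). Ifitm6 stood at 168 and 114 FPKM and was 1.48-fold lower (interval of the ratio 0.560 to 0.817). All 4 genes lie in 1 cluster on chromosome 7, with Ifitm1 and Ifitm6 on opposite sides of 1. Of the transcript of Ifitm2, 69.8% matches other gene models at 95% identity or more, among them Gm11951, and 36.2% of that of Ifitm1 matches Gm7676. Bst2, of tetherin, which holds budding virions at the cell surface, stood at 32.8 and 23.6 FPKM (interval 0.485 to 1.07).

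The remaining type I-biased genes were lower or had an interval that included 1. Trim30a, which restrains Toll-like receptor signalling, stood at 33.9 FPKM in the control and 17.1 FPKM with ATPγS, or 1.99-fold lower (interval of the ratio 0.415 to 0.610). Rtp4, a receptor transporter protein gene, stood at 175 and 135 FPKM (interval 0.687 to 0.865), and Ifi44 at 9.80 and 6.53 FPKM (interval 0.451 to 0.972). Ifi35 (55.9 and 52.9 FPKM), Xaf1 (18.3 and 17.4 FPKM) and Parp14, of an ADP-ribosyltransferase (16.8 and 16.4 FPKM), had intervals that included 1. The Mx genes, of antiviral dynamin-like GTPases, were the lowest members, with Mx1 at 4.21 and 3.57 FPKM and Mx2, annotated as a polymorphic pseudogene, at 3.60 and 4.42 FPKM.

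Low values need a yardstick. The 1430 olfactory and vomeronasal receptor genes, which myeloid cells are not known to use as a group, had a median of 1.98 FPKM in the control and 2.21 FPKM with ATPγS, and their 90th percentiles were 11.3 and 10.4 FPKM. At or below those percentiles in both libraries were 7 members, Mx1, Mx2, Oas2, Ifih1, Dhx58, Ifi44 and Herc6. The other 34 members lay above it in at least 1 library. Of these, Oas1a was at or below it in the control, at 7.56 FPKM.

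**Figure D3:**
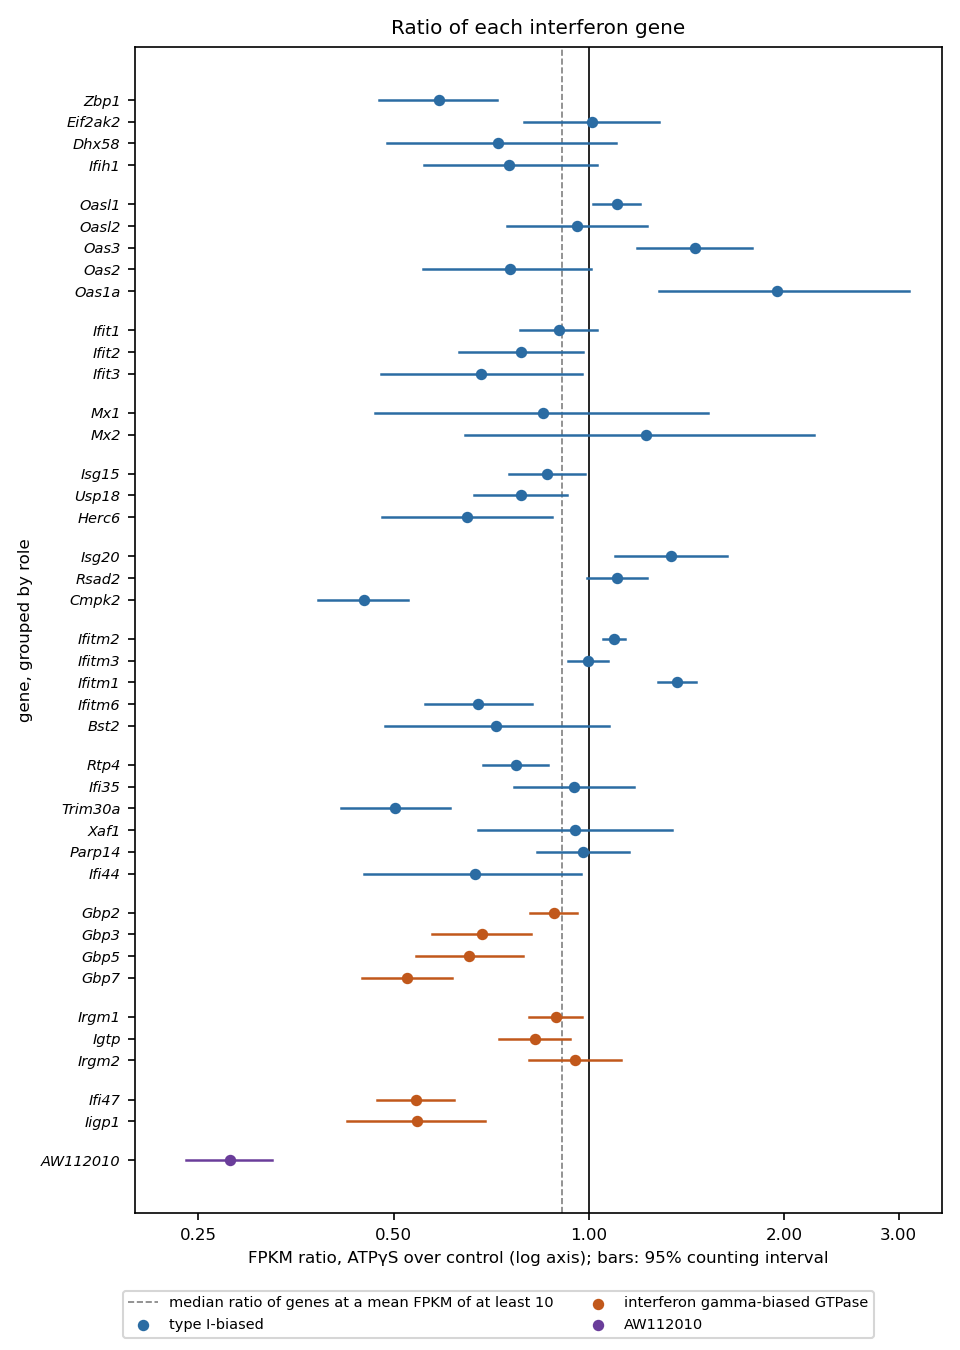
FPKM ratio of ATPγS over control for each of the 41 members on a log axis, with 95% counting intervals as bars and 1 library per condition. The solid line is a ratio of 1 and the dashed line the median ratio of genes at a mean of at least 10 FPKM, 0.910. Ratios run from 0.280 for AW112010 to 1.95 for Oas1a.

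Taking all 31 type I-biased genes, 11 had an interval wholly below 1 and 6 wholly above it. Over 17565 genes at a mean of at least 1 FPKM the shares were 23.5% and 23.3%. In the range of levels of the GTPases, 19.5 to 183 FPKM, they were 39.6% and 19.1%. No share was taken over genes at the levels of the type I-biased list. Set against the median ratio of all genes, 6 lay wholly below (Cmpk2, Trim30a, Zbp1, Ifitm6, Rtp4 and Herc6) and 8 wholly above (Oas1a, Oas3, Oasl1, Isg20, Rsad2, Ifitm1, Ifitm2 and Ifitm3). Over all genes these shares were 18.1% and 28.3%, so the counts of type I-biased genes on each side were near the background. Of the 31 genes, 17 were below the median log2 ratio of all genes at 10 FPKM or more. The 24 type I-biased genes at a mean of at least 10 FPKM had a median of -0.07.

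**Figure D4:**
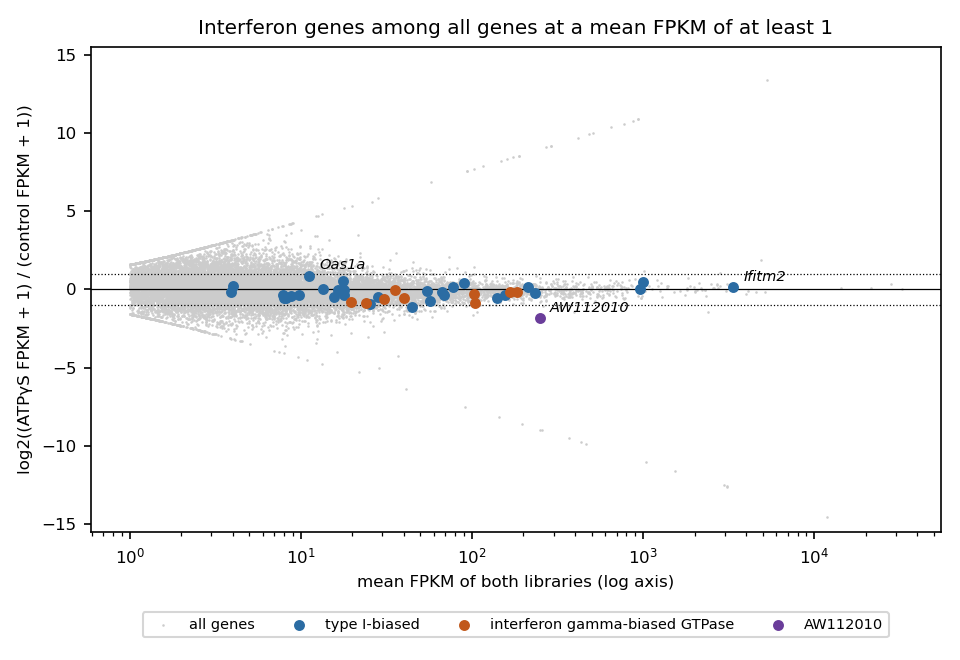
The log2 ratio of ATPγS over control (pseudocount 1) against the mean FPKM of both libraries (log axis), for 18311 genes at a mean of at least 1 FPKM, with the members in colour. Dotted lines mark 2-fold, and of the members only Cmpk2 and AW112010 lie beyond them, both on the lower side.

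The rest of the interferon pathway was read from lists of genes outside the members. Of 21 interferon genes, 9 were listed at 0 in the control and 6 with ATPγS, and 12 had a mean of at least 1 FPKM. Of these 12, 5 were higher and 2 lower by 2-fold or more, but 8 (Ifna1, Ifna2, Ifna4, Ifna11, Ifna12, Ifna14, Ifne and Ifng) were at or below the 90th percentile of the receptor genes in both libraries. The other 4 were Ifnb1, of interferon beta (8.46 and 18.03 FPKM), Ifna5 (3.05 and 11.4 FPKM), Ifna15 (3.03 and 12.1 FPKM) and Ifnab (15.1 and 4.16 FPKM). Each of these 4 was above the percentile only in the library where it was higher, so setting them apart favoured genes that differ. The interval of Ifnb1 was 1.11 to 4.16, from about 39 reads with ATPγS. Ifng, of interferon gamma, stood at 0.729 and 1.36 FPKM, a level at which no difference can be read. The alpha interferon genes resemble each other in sequence, so how their reads were divided is uncertain.

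Of the 6 receptor genes, 5 were above the 90th percentile of the olfactory and vomeronasal genes in both libraries. Ifnar1 stood at 24.5 FPKM in the control and 33.1 FPKM with ATPγS (interval of the ratio 1.14 to 1.61), and Ifnar2 at 154 and 153 FPKM. Ifngr1, of the ligand-binding chain for interferon gamma, was lower at 183 and 138 FPKM (interval 0.685 to 0.833), and Ifngr2 stood at 81.7 and 86.8 FPKM. Il10rb, which also serves the lambda interferons, stood at 216 and 252 FPKM, and Ifnlr1 was the 1 of 6 at least 2-fold higher, at 4.10 and 9.84 FPKM, below those percentiles in both libraries.

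The signalling genes named here differed by less than 2-fold. Stat2, of the type I complex, stood at 25.9 FPKM in the control and 17.0 FPKM with ATPγS (interval of the ratio 0.543 to 0.792). The kinase genes Jak2 (62.5 and 42.3 FPKM) and Tyk2 (15.9 and 9.91 FPKM) were lower too, while Jak1 stood at 117 and 130 FPKM. Irf9 (89.3 and 76.4 FPKM) and Irf7 (144 and 114 FPKM) were lower and Irf1, an interferon-inducible transcription factor, was higher (368 and 427 FPKM).

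Further targets outside the members were mostly lower, beside 49.6% of all genes at a mean of at least 1 FPKM and 60% at 10 FPKM or more. Of the other type I targets, 25 of 50 lay below the median of all genes at 10 FPKM or more, -0.13. So did 10 of 16 interferon gamma targets that are no GTPases and 7 of 10 other interferon gamma GTPases. Of the 10 other interferon gamma GTPases 7 were lower and 3 higher, with a median of -0.44 and Gbp2b at 148 and 109 FPKM. The 3 higher ones, picked out after their values were seen, were Gbp9 (15.2 and 15.7 FPKM), Gbp11 (2.03 and 3.25 FPKM) and F830016B08Rik (8.10 and 10.4 FPKM), and the intervals of all 3 included 1. Gbp4, at 27.0 and 11.8 FPKM, was the 1 at least 2-fold lower and was picked out after its values were seen. The 16 interferon gamma targets that are no GTPases had a median of -0.22. Cxcl10, of a T cell attractant (168 and 82.8 FPKM), was the 1 at least 2-fold lower. Tap1 (86.6 and 56.5 FPKM) and Tap2 (68.0 and 49.6 FPKM), of the peptide transporter for antigen presentation, and Socs1, of a feedback inhibitor of JAK kinases (28.4 and 21.0 FPKM), were lower by less. The 50 other type I targets had a median of -0.13, and the 35 of them at a mean of at least 10 FPKM had one of -0.26, with 30 of 35 lower. At least 2-fold lower were 4, Shisa5 (449 and 208 FPKM), Uba7, of the ISG15-activating enzyme (22.2 and 10.1 FPKM), Ifi203 (19.1 and 7.99 FPKM) and Epsti1 (11.1 and 3.26 FPKM), and at least 2-fold higher were 2, Phf11a (2.86 and 9.03 FPKM) and Trim30d (2.83 and 7.94 FPKM). Of these 6, all but Shisa5 were picked out after their values were seen. Ifi27l2a (341 and 204 FPKM), Slfn1 (59.0 and 33.3 FPKM) and Ifi202b (27.0 and 14.7 FPKM) were lower as well. These lists were not compared by a test.

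**Figure D5:**
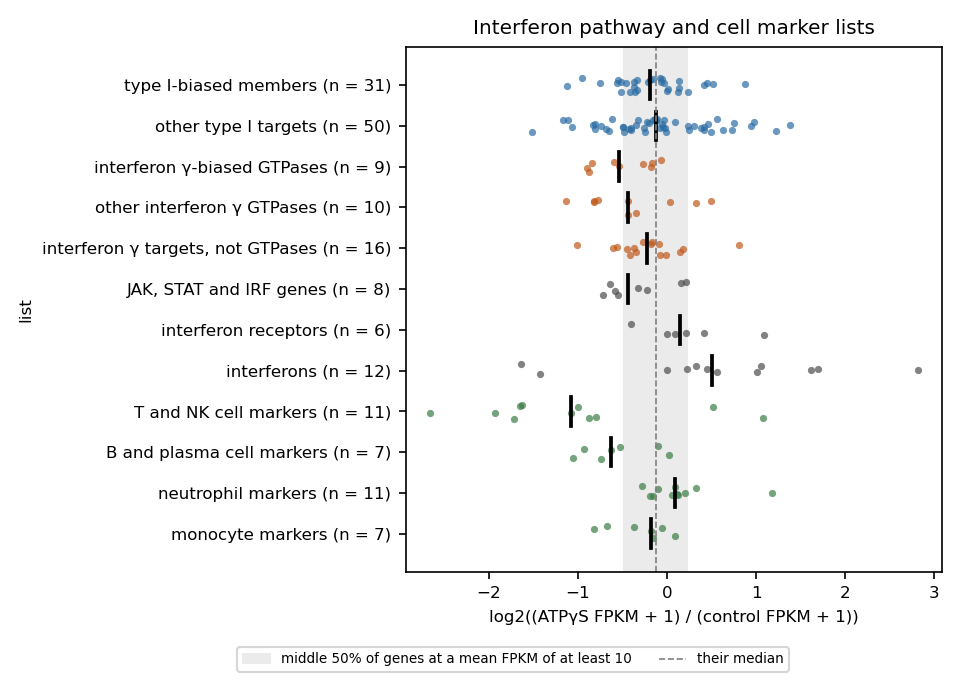
The log2 ratio of ATPγS over control (pseudocount 1) of each gene at a mean of at least 1 FPKM, by list, with the list's median as a black bar and the number of genes in brackets. The grey band holds the middle 50% of genes at a mean of at least 10 FPKM and the dashed line is their median, -0.13. The medians of the T and NK cell markers (-1.08), the B and plasma cell markers (-0.63) and the interferon gamma-biased GTPases (-0.53) lie farthest below it. Those of the interferons (0.51), the interferon receptors (0.15) and the neutrophil markers (0.09) lie above it, and the remaining lists lie at or below it.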

How the data were processed

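RNA of Gr-1+ CD11b+ cells was measured in 2 libraries, 1 per group. The protocol text describes ATPγS stimulation for both samples, so the groups follow their titles and treatment labels. Per the labels' protocols, the SMART-Seq HT and Nextera kits were used, and these do not mark strand. Per the submitters' processing notes the authors used Cufflinks 2.2.1, TopHat2 2.0.13 with Bowtie2 2.2.3, and SAMtools 0.1.19 on mm10. The deposited values are FPKM, and the gene annotation is not given in the sources used here. No count test was run.

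Depth was read as the total at which FPKM times coding length gave whole reads in 1430 olfactory and vomeronasal receptor genes. Of the values under 10 reads, 65.1% (control) and 65% (ATPγS) were whole within 0.05 reads, where chance gives 10%. Reads were estimated with the lengths of GENCODE M21 transcripts (GRCm38, which is mm10), which 23310 symbols (95.7%) matched. They are rough, as other gene models may have been used upstream. Clopper-Pearson intervals (exact binomial, 95%) leave out all error but counting, and PCR copies cannot be told from separate molecules. Shared sequence was found with BLAST 2.17.0 at 95% identity over at least 75 bases. A pseudocount of 1, a minimum mean of 1 FPKM and a 2-fold threshold were used. Only the counts past 2-fold and the medians were tested on simulated data, with changes larger than 2-fold. The depth, the intervals, the shared sequence and the motif search were not tested in this way.

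The members and lists were chosen with earlier results of these data known. All members were named, and of the other lists every interferon and receptor at a mean of at least 1 FPKM, the signalling genes (1 is not reported here), up to 4 further genes per list at a mean of at least 20 FPKM with the largest difference, and the most abundant markers. Alternatives were other pseudocounts, rescalings, filters, fold thresholds, member sets and motif lengths. Ly6g had no value in the data, so 11 of the 12 neutrophil markers listed were measured.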

Additional observations from a re-analysis of the deposited data

How the results depend on the processing

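No paired analysis was possible because each group has 1 library, and no library could be left out. Of 164 values of single members under 2 other pseudocounts and 2 rescalings, 159 stayed within their counting interval and 5 (Oasl1, Ifitm1, Ifitm2, Ifitm3 and Gbp2) moved beyond it, all under the rescaling to a median of 0. No member past 2-fold changed sign. Rescaling to a median of 0 raises log2 ratios by 0.13. It took the type I-biased median to -0.083 with 0 genes at least 2-fold lower, the GTPase median to -0.41, and the genes outside the members to a median of -0.0014 with 5 lower, where the values without it were -0.19, -0.53, -0.13 and 8. For the type I-biased genes, a minimum of 10 FPKM gave a median of -0.072. Leaving out the fixed list that runs from Ifit1 to Trim30a gave -0.34, and most genes of that list had no near-identical copy. A 1.5-fold threshold gave 1 type I-biased gene higher and 3 lower, and 4 GTPases lower, while 3-fold gave 0 type I-biased genes lower. With AW112010 included, 1 gene of the GTPase list was lower. For the GTPases the rule was instead a match to another gene of the table over most of the transcript, which removed none and is void. Outside the members, 8 genes were higher and 8 lower. The counts were 13 higher with a pseudocount of 0.1, 3 higher and 2 lower with 5, 1 higher and 5 lower (median -0.27) at 10 FPKM, 14 and 21 at 1.5-fold, and 3 and 1 at 3-fold. The ISRE core extended by CT was found in 6 type I-biased genes in place of 12. Chosen after seeing the data were summing near-identical pairs, the shortest transcript, which left 26 members with an interval excluding 1, and the median ratio of all genes as reference. Apart from moves that follow from fewer genes or another threshold, the cause was not tested. Depth limits members under about 10 FPKM most.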
